A study of Rattus norvegicus with 16 samples.

Results

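Interferon-induced genes are switched on when a cell senses an interferon, a cytokine released in infection and inflammation. Type I interferons act through the kinases JAK1 and TYK2 on a DNA element called the ISRE, whereas interferon gamma acts through JAK1 and JAK2 on an element called GAS. In bone, interferons are known to restrain the formation of osteoclasts, the cells that resorb bone. The genes described here are Irf7, Isg15, Usp18, Ubd, Mx1, Mx2, Ifit2, Rsad2 and Gbp2. They were taken by symbol from a table of read counts with 14476 genes. All 9 were in the table, and all 9 passed the filter on low counts, which kept 12857 genes.

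The counts come from a rat model of the Masquelet technique, in which a cement spacer placed in a bone defect induces a sheath of tissue around it before bone graft is added. Each of 4 Sprague-Dawley rats had a plated osteotomy on both sides, with a polymethyl methacrylate (PMMA) spacer on 1 side and an empty defect on the other, and tissue was taken after 4 weeks. The 4 groups were the induced membrane around the spacer (IM), the pre-fibrous non-union of the empty osteotomy (PFNU), bone next to the spacer (PMMA bone) and bone next to the empty defect (BNED). Every rat gave 1 library to each group, both limbs carried an osteotomy and a plate, and no uninjured bone was compared.

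Libraries held 40472228 to 76815879 counts. Levels are CPM, counts per 1000000 counts of the scaled library. The summed level of 9 osteoblast and osteocyte markers was 135 to 3684 CPM in IM and 362 to 2292 CPM in PFNU, against 7837 to 9516 CPM in PMMA bone and 2432 to 6749 CPM in BNED, so that the highest IM library exceeded the lowest BNED library. The PMMA bone library of rat 1 stood apart from the rest of its group in erythroid markers, and the PFNU library of rat 1 stood apart in the interferon-induced genes themselves. The main results that rest on either library are given with and without it.

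RefSeq promoter sequences (build GRCr8, 250 bases before to 50 bases after a start of the gene) were matched for 5 of the 9 genes, Irf7, Ubd, Mx1, Rsad2 and Gbp2. The core of the ISRE, GAAANNGAAA on either strand, was present in the promoters of 3 of these 5, Irf7, Rsad2 and Gbp2, and in 3.92% of all 33469 rat promoters of the same length. The same letters with a single base between, GAAANGAAA, was found in the Irf7 promoter and in 3.50% of all promoters. The GAS letters TTCNNNGAA were found in none of the 5 and in 8.87% of all promoters. The ISRE core lay 147 to 138 bases upstream of the start used in Rsad2, 69 to 60 bases upstream in Irf7 and 31 to 22 bases upstream in Gbp2. In Rsad2 and Irf7 the start used lies inside the annotated gene, whose outermost RefSeq start is further upstream. The stretch shown for Rsad2 ends just before that outermost start, 126 bases upstream of the start used. The stretch shown for Irf7 lies wholly inside the annotated gene. It is shown in capitals below for these 3 genes as it reads on the strand of the gene, and Ubd is shown because it varied most between libraries and held none of the 3 motifs. The stretches are chr1:205800073-205800102 for Irf7 (minus strand), chr6:48788246-48788370 for Rsad2 (minus strand), chr2:234005477-234005726 for Gbp2 (plus strand) and chr20:1392686-1392935 for Ubd (minus strand). A match describes the letters and does not show that a factor binds there.
Irf7: acagtttaggTTTCATTTTCccgagacgca
Rsad2: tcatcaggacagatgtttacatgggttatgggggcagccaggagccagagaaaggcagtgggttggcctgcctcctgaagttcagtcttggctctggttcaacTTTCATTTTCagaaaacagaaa
Gbp2: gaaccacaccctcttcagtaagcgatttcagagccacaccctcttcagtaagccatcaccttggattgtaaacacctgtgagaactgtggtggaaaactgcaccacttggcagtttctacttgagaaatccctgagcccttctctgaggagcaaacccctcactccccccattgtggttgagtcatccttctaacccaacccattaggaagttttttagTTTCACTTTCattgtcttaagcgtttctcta
Ubd: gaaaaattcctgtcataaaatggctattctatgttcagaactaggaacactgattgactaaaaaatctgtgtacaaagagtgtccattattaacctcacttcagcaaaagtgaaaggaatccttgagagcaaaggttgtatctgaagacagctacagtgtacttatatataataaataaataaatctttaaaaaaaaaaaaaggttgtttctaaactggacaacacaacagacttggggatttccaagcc

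Levels below are given for rats 1, 2, 3 and 4 in that order within each group, and means are given with the SD over 4 libraries. Of the regulators, Irf7 encodes the transcription factor that amplifies type I interferon production. It was at 27.0, 86.0, 156 and 89.1 CPM in IM, 185, 62.3, 21.8 and 44.9 CPM in PFNU, 46.8, 21.2, 19.8 and 23.1 CPM in PMMA bone and 47.0, 86.9, 33.8 and 41.8 CPM in BNED. Its lowest IM library came from rat 1 and its lowest PFNU library from rat 3, and every pair of groups overlapped. Irf7 was the only one of the 9 genes with its highest group mean in IM, at 89.6 ± 52.8 CPM against 78.4 ± 72.8 CPM in PFNU.

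Isg15 encodes a ubiquitin-like protein that is attached to other proteins during an interferon response, and Usp18 encodes the protease that removes it and also damps signalling at the type I receptor. Isg15 was at 5.81, 29.3, 23.5 and 18.4 CPM in IM, 53.4, 18.5, 5.73 and 8.10 CPM in PFNU, 8.27, 7.16, 8.57 and 4.56 CPM in PMMA bone and 5.21, 15.4, 6.65 and 6.60 CPM in BNED. The IM library of rat 1 and the PFNU libraries of rats 3 and 4 fell within the range of bone. Usp18 was at 15.0, 32.2, 31.8 and 19.3 CPM in IM, 56.5, 24.6, 16.6 and 13.4 CPM in PFNU, 12.1, 8.28, 5.59 and 6.21 CPM in PMMA bone and 8.22, 16.1, 8.19 and 9.58 CPM in BNED. The IM and PMMA bone libraries did not overlap for Usp18, while in PFNU and BNED the library of rat 2 from BNED reached above the lowest PFNU library.

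Ubd encodes FAT10, a second ubiquitin-like protein, which marks proteins for breakdown by the proteasome and is induced by interferon gamma and tumour necrosis factor. It was at 0.614, 4.59, 18.1 and 2.47 CPM in IM, 91.9, 4.60, 5.40 and 10.5 CPM in PFNU, 1.07, 1.94, 3.15 and 0.750 CPM in PMMA bone and 0.571, 0.176, 1.27 and 0.656 CPM in BNED. All 4 PFNU libraries lay above all 4 BNED libraries, and the PFNU library of rat 1 was far above the other PFNU libraries. Among the 9 genes Ubd had the widest spread within groups, an SD of 1.57 on the log2 CPM scale, wider than that of 99.1% of the genes tested. Ifit2 had the narrowest, 0.55, which was still wider than that of 66.6% of genes, and the median over all genes was 0.41.

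The antiviral effectors include the paired GTPases Mx1 and Mx2, which in rodents act in the nucleus and the cytoplasm and block the replication of RNA viruses. Mx1 was at 16.8, 65.1, 109 and 31.4 CPM in IM, 285, 77.5, 17.0 and 35.4 CPM in PFNU, 34.4, 15.4, 7.79 and 11.7 CPM in PMMA bone and 23.6, 57.7, 27.4 and 32.9 CPM in BNED. Mx2 was at 27.1, 102, 71.8 and 71.0 CPM in IM, 444, 121, 17.9 and 67.0 CPM in PFNU, 51.3, 17.2, 8.14 and 17.7 CPM in PMMA bone and 24.8, 63.9, 17.9 and 33.7 CPM in BNED. Both were highest in the PFNU library of rat 1 and lowest in the PMMA bone library of rat 3, and defect tissue overlapped bone for both. The Mx genes are close copies of each other, as are members of the Ifit and Gbp families, and shared reads may have been split between copies.

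Ifit2, whose protein binds RNA and hinders translation of viral messages, was at 71.4, 126, 88.4 and 62.5 CPM in IM, 212, 119, 57.3 and 93.2 CPM in PFNU, 79.2, 47.7, 36.1 and 35.7 CPM in PMMA bone and 34.4, 46.1, 32.9 and 54.7 CPM in BNED. All PFNU libraries lay above all BNED libraries, while the PMMA bone library of rat 1 lay within the range of IM. Gbp2, a guanylate-binding GTPase of the response to interferon gamma that acts against microbes inside the cell, was at 67.9, 141, 191 and 70.1 CPM in IM, 661, 92.6, 78.0 and 95.7 CPM in PFNU, 49.6, 55.7, 83.8 and 43.0 CPM in PMMA bone and 38.9, 41.8, 43.7 and 58.0 CPM in BNED. Its PFNU libraries also lay above all BNED libraries, and the PFNU library of rat 1 was far above the others.

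Rsad2 encodes viperin, an enzyme that makes a chain-terminating nucleotide against viruses, and its levels ran in another order from those of the other 8 genes. It was at 2.78, 12.6, 14.9 and 11.1 CPM in IM, 56.5, 36.5, 8.85 and 24.6 CPM in PFNU, 352, 20.0, 24.7 and 58.1 CPM in PMMA bone and 288, 277, 194 and 402 CPM in BNED. All BNED libraries lay above all PFNU libraries and all PMMA bone libraries above all IM libraries, and the PMMA bone library of rat 1 was at the level of BNED. Group means were 10.3 ± 5.28 CPM in IM, 31.6 ± 20.1 CPM in PFNU, 114 ± 160 CPM in PMMA bone and 290 ± 85.2 CPM in BNED. For the other 8 genes the highest group mean was in PFNU or, for Irf7, in IM, and both bone groups came last. PMMA bone was the lowest group for Isg15, Irf7, Mx1, Mx2 and Usp18 and BNED for Ubd, Ifit2 and Gbp2. Of the neighbours in these orders, IM and PFNU were not called different for any of the 9 genes and neither were PMMA bone and BNED, with the exception of Rsad2 without 1 library, as the tests below give. Other neighbours, such as IM and BNED, come from different limbs and were not tested.

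**Figure D1:**
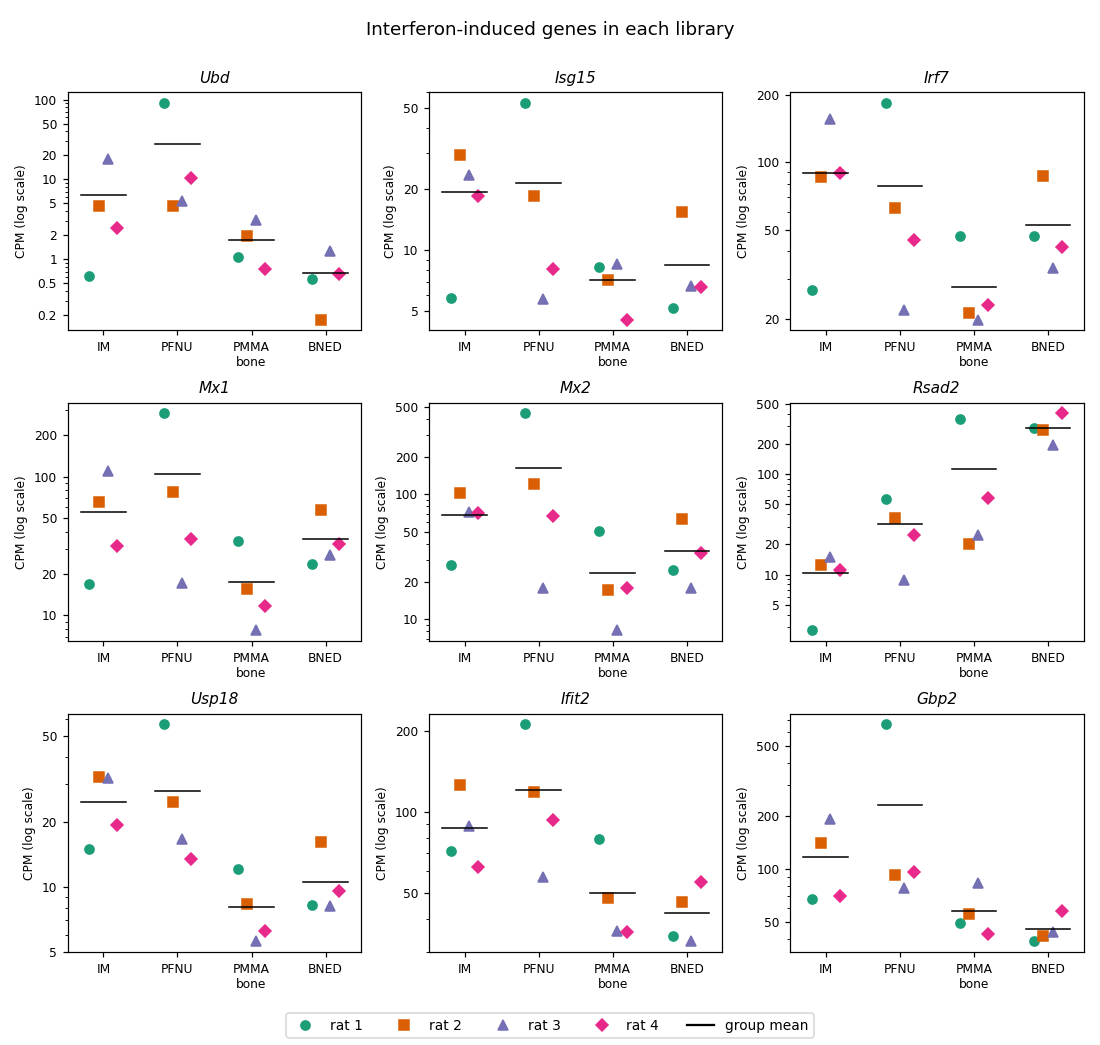
Level of each of the 9 interferon-induced genes in each library, in CPM on a log axis, by group (IM, PFNU, PMMA bone, BNED). Points are libraries marked by rat and lines are group means. The PFNU library of rat 1 is the highest PFNU library for all 9 genes, and Rsad2 is the gene with its highest levels in bone.

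The first question was whether the spacer alters these genes inside the defect, so IM was set against PFNU. In the edgeR quasi-likelihood test, a gene was called at a Benjamini-Hochberg adjusted p under 0.05 over all genes tested, and 0 of the 9 genes were called, beside 0.863% of all genes. None of the 9 had an unadjusted p under 0.05, which 15.5% of all genes had, and DESeq2 also called 0. The largest difference was that of Ubd, which averaged 6.45 ± 7.95 CPM in IM and 28.1 ± 42.6 CPM in PFNU, with adjusted p = 0.336 for a log2 fold change of -2.12 (SE 1.03). Rsad2 averaged 10.3 CPM in IM and 31.6 CPM in PFNU, with adjusted p = 0.349 for a log2 fold change of -1.61 (SE 0.80). Usp18, Isg15 and Irf7 lay closest to 0, with log2 fold changes of -0.18 (SE 0.42), -0.15 (SE 0.61) and 0.19 (SE 0.58). The median log2 fold change of the 9 genes was -0.90, and that of all genes tested was 0.01.

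That median turned with a single library. Without the PFNU library of rat 1 the median of the 9 genes was 0.36, the log2 fold changes of Isg15 (0.84), Mx1 (0.36), Usp18 (0.43) and Gbp2 (0.40) were positive, and that of Ubd was -0.08. Within rats, the difference between the limbs had no common direction. In rat 1 all 9 genes were lower in IM than in PFNU, by a median of -3.28 on the log2 CPM scale, with a range from -7.14 to -1.57. In rat 3 all 9 were higher in IM, by a median of 1.74 and a range from 0.63 to 2.84. In rats 2 and 4 the genes were divided, with 5 and 4 of 9 higher in IM and medians of 0.08 and -0.17.

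The same question was put to the neighbouring bone, with PMMA bone set against BNED. Again 0 of the 9 genes were called, beside 4.91% of all genes. None had an unadjusted p under 0.05, which 24.3% of genes had, and DESeq2 called 0 of the 9. Rsad2 averaged 114 ± 160 CPM in PMMA bone and 290 ± 85.2 CPM in BNED (log2 fold change -1.35, SE 0.79, adjusted p = 0.310). Ubd averaged 1.73 ± 1.07 CPM in PMMA bone and 0.669 ± 0.454 CPM in BNED (log2 fold change 1.39, SE 1.06, adjusted p = 0.440). Irf7 averaged 27.7 ± 12.8 CPM in PMMA bone and 52.4 ± 23.6 CPM in BNED (log2 fold change -0.92, SE 0.59, adjusted p = 0.355), and Mx1 averaged 17.3 ± 11.8 CPM in PMMA bone and 35.4 ± 15.4 CPM in BNED (log2 fold change -1.03, SE 0.75, adjusted p = 0.416).

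The Rsad2 result in bone depended on the PMMA bone library of rat 1. Without that library its log2 fold change was -3.08 and the gene was called (edgeR adjusted p = 0.00602), in a fit that called 19.9% of all genes. The remaining PMMA bone libraries, at 20.0, 24.7 and 58.1 CPM, lay below all BNED libraries. In the same fit the log2 fold changes of Mx1, Mx2 and Irf7 were -1.61, -1.29 and -1.29. That of Ifit2 turned from 0.24 to -0.08, and none of these genes was called. Within rats, 8 of the 9 genes were higher in PMMA bone than in BNED in rat 1 (median log2 difference 0.56), and 8 of the 9 were lower in rat 4 (median -0.62). In rats 2 and 3 the counts were 6 and 5 of 9 lower, with medians of -1.10 and -0.55.

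The difference between the effect of the spacer in defect tissue and in bone was tested as an interaction. None of the 9 genes was called and 0 of all 12857 genes were called by edgeR, while DESeq2 called 136 genes and 0 of the 9. At an unadjusted p under 0.05 were 8.94% of all genes and 1 of the 9, Ubd. Its log2 fold change was -2.12 for IM against PFNU and 1.39 for PMMA bone against BNED, a difference of -3.51 (SE 1.48, unadjusted p = 0.0306, adjusted p = 0.509). Without the PFNU library of rat 1 that difference was -1.47 (adjusted p = 0.802). For Rsad2 the difference turned from -0.26 to 1.47 without the PMMA bone library of rat 1 (edgeR adjusted p = 0.406).

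**Figure D2:**
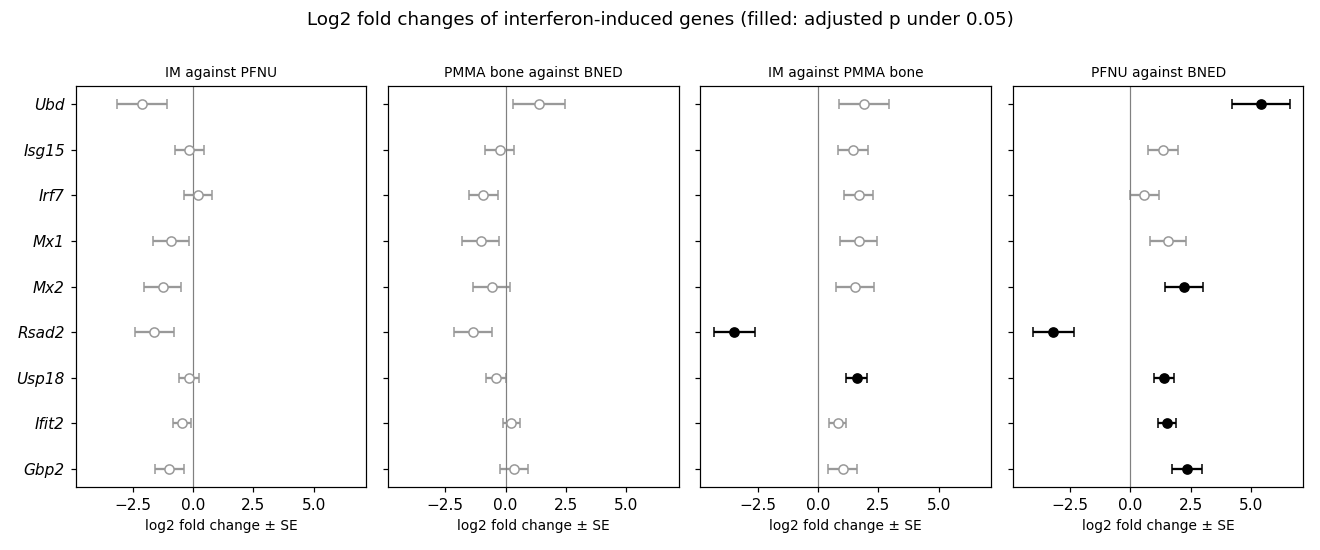
Log2 fold change of each of the 9 genes with its SE from the edgeR fit over 16 libraries, in a panel for each of 4 comparisons. Filled points had an adjusted p under 0.05; they are 0, 0, 2 and 6 of 9 genes for IM against PFNU, PMMA bone against BNED, IM against PMMA bone and PFNU against BNED, and Rsad2 is the filled point left of 0 in the last 2 panels.

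Defect tissue and bone of the same limb were compared next. In the empty limb, 5 of the 9 genes were higher in PFNU than in BNED and 1 was lower, beside 15.0% of all genes higher and 15.2% lower (30.2% called in all). Ubd averaged 28.1 ± 42.6 CPM in PFNU and 0.669 ± 0.454 CPM in BNED (log2 fold change 5.41, SE 1.21, adjusted p = 0.00423). Ifit2 averaged 120 ± 66.0 CPM in PFNU and 42.0 ± 10.3 CPM in BNED (log2 fold change 1.52, SE 0.37, adjusted p = 0.00738), and Gbp2 averaged 232 ± 286 CPM in PFNU and 45.6 ± 8.52 CPM in BNED (log2 fold change 2.35, SE 0.61, adjusted p = 0.0106). Rsad2 averaged 31.6 ± 20.1 CPM in PFNU and 290 ± 85.2 CPM in BNED (log2 fold change -3.20, SE 0.85, adjusted p = 0.0115). The libraries did not overlap for these 4 genes, and 39.9% of all genes had no overlap.

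Usp18 and Mx2 were the other genes higher in PFNU. Usp18 averaged 27.8 ± 19.7 CPM in PFNU and 10.5 ± 3.80 CPM in BNED (log2 fold change 1.40, SE 0.43, adjusted p = 0.0236), and Mx2 averaged 163 ± 193 CPM in PFNU and 35.1 ± 20.3 CPM in BNED (log2 fold change 2.21, SE 0.79, adjusted p = 0.0458). Isg15 (log2 fold change 1.34, SE 0.62, adjusted p = 0.112), Mx1 (1.55, SE 0.76, adjusted p = 0.130) and Irf7 (0.58, SE 0.58, adjusted p = 0.471) were not called. The median log2 fold change of the 9 genes was 1.52, and that of all genes was 0.04. Without the PFNU library of rat 1 the median of the 9 was 0.79.

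The PFNU library of rat 1 carried much of the size of these differences. Without it Ubd, Ifit2, Gbp2 and Rsad2 were still called, with log2 fold changes of 3.36 (adjusted p = 0.0177), 1.10 (0.0291), 0.96 (0.0481) and -3.64 (0.0166), in a fit that called 24.3% of all genes. Mx2 (0.97, adjusted p = 0.297) and Usp18 (0.79, adjusted p = 0.115) were not called without it, and the log2 fold changes of Isg15, Mx1 and Irf7 were then 0.35, 0.29 and -0.28. Usp18 was also lost without the BNED library of rat 1, 3 or 4, with adjusted p up to 0.0687 among these. The call of Mx2 was lost with rat as a block (adjusted p = 0.101), with the 8 libraries of the comparison alone (adjusted p = 0.0707) and without any of 8 other single libraries.

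In the limb with the spacer, IM was set against PMMA bone, and 1 of the 9 genes was higher and 1 lower, beside 11.3% of all genes higher and 11.0% lower (22.2% called in all). Usp18 was higher in the membrane, with 24.6 ± 8.75 CPM in IM and 8.05 ± 2.95 CPM in PMMA bone (log2 fold change 1.61, SE 0.43, adjusted p = 0.0168). Rsad2 was lower, with 10.3 ± 5.28 CPM in IM and 114 ± 160 CPM in PMMA bone (log2 fold change -3.46, SE 0.86, adjusted p = 0.0120). These were also the 2 genes whose libraries did not overlap, which held for 19.5% of all genes. The other 7 genes had positive log2 fold changes between 0.81 (Ifit2, adjusted p = 0.119) and 1.90 (Ubd, adjusted p = 0.197) and were not called. Irf7 lay closest to the threshold (log2 fold change 1.69, SE 0.60, adjusted p = 0.0541). It was called in 7 of 22 alternative settings, among them rat as a block (adjusted p = 0.0498). Over the same settings Mx1 was called in 2, Isg15, Mx2, Ifit2 and Gbp2 in 1 each and Ubd in 0.

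Neither call in the spacer limb held in every setting. Without the PMMA bone library of rat 1 the log2 fold change of Rsad2 was -1.73 (adjusted p = 0.0619). Rsad2 also missed the threshold with rat as a block (log2 fold change -2.55, adjusted p = 0.0554) and with the 8 libraries alone (adjusted p = 0.0611). The call of Usp18 was lost without the PMMA bone library of rat 3 (adjusted p = 0.0514) or rat 4 (adjusted p = 0.0505). Usp18 was called in 20 of 22 alternative settings, and its log2 fold change ranged from 1.455 to 1.876 over them all.

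Markers of muscle and vessels moved beside the genes that were higher in defect tissue. The summed level of 10 skeletal muscle markers was 16171 to 234840 CPM in IM, 42775 to 136617 CPM in PFNU, 1363 to 8567 CPM in PMMA bone and 2630 to 28210 CPM in BNED, so that PFNU did not overlap BNED, nor IM PMMA bone. Of these markers 6 were higher in PFNU than in BNED and 0 lower, with a median log2 fold change of 2.93, and 7 were higher in IM than in PMMA bone and 1 lower. The summed level of 7 endothelial markers was 886 to 1415 CPM in IM, 902 to 1164 CPM in PFNU, 501 to 870 CPM in PMMA bone and 406 to 463 CPM in BNED, again with no overlap within either limb. Of these 6 were higher in PFNU than in BNED (median log2 fold change 1.18) and 3 in IM than in PMMA bone. The sum of 10 macrophage markers, of 11 listed, was 1649 to 3057 CPM in IM, 792 to 1866 CPM in PFNU, 1397 to 2006 CPM in PMMA bone and 1245 to 1531 CPM in BNED, and 4 of them were higher in IM than in PMMA bone and 0 differed between PFNU and BNED by the test. No marker of these lists was at 0 in all libraries of a group. Within PFNU the library of rat 1, highest for all 9 genes, was also highest in the endothelial sum, and 2 of the other PFNU libraries had more muscle. The part of these cell types in the levels of the 9 genes was not tested.

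The 9 genes tended to vary together between rats. The PFNU library of rat 1 was the highest of its group for 9 of 9 genes, with a median deviation of 1.86 from the group mean on the log2 CPM scale. The IM library of rat 1 was the lowest of its group for 8 of 9 and lay below the group mean for all 9, with a median deviation of -1.39 on that scale, and the PFNU library of rat 3 was the lowest for 7 of 9. In bone, the PMMA bone library of rat 1 was the highest for 6 of 9 and the BNED library of rat 2 for 5 of 9. Rat 1 therefore gave both the highest PFNU library and the lowest IM library.

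**Figure D3:**
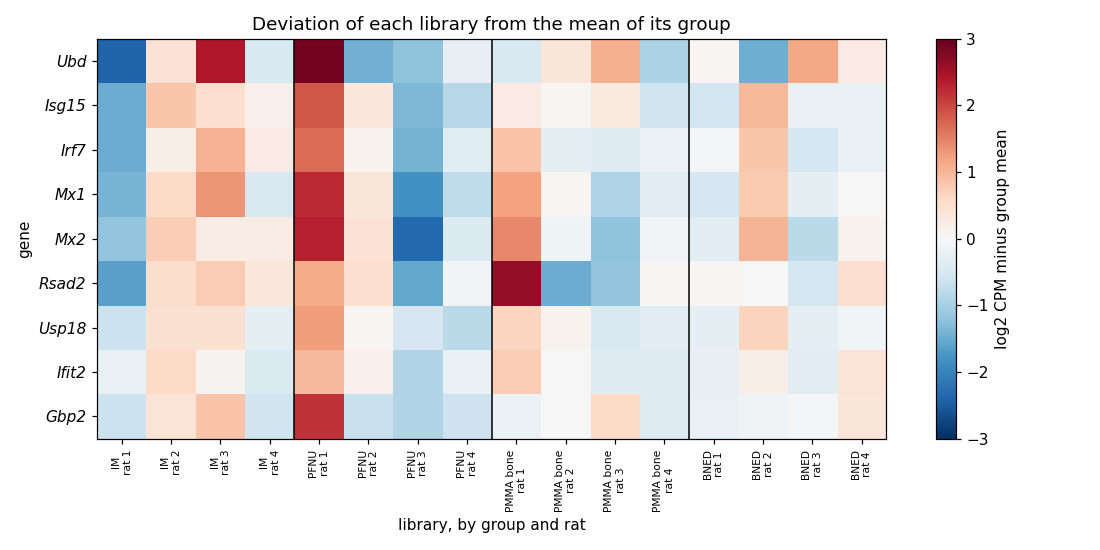
Deviation of each library from the mean of its group, as log2 CPM minus the group mean, for the 9 genes (rows) in 16 libraries (columns, by group and rat). Red is above and blue below the group mean. The PFNU library of rat 1 and the IM libraries of rats 2 and 3 are red in all 9 rows. The IM library of rat 1 and the PFNU libraries of rats 3 and 4 are blue in all 9. The high PFNU library of rat 1 raises its group mean and so lowers the deviations of the other PFNU libraries. The darkest cell of the PMMA bone of rat 1 is Rsad2.

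After the group means were removed, the 28 pairs among the 8 genes other than Rsad2 had a median Pearson correlation of 0.79 over 16 libraries, with a range from 0.35 to 0.94. The 8 pairs with Rsad2 had a median of 0.68, with a range from 0.28 to 0.80. Over the same libraries with group means left in, the pairs without Rsad2 had a median of 0.81 and those with Rsad2 had -0.22. Rsad2 thus went with most of the other genes between rats of a group, and only weakly with Ubd (0.28) and Gbp2 (0.34). It ran in the reverse order between defect tissue and bone. Between the limbs its means ran as those of Isg15, Mx1, Mx2 and Usp18, with PFNU above IM and BNED above PMMA bone. With group means left in, its correlations with Irf7, Mx1 and Mx2 were 0.09, 0.12 and 0.006, and so not negative. These correlations are descriptions, since the 16 libraries share 4 rats and 4 tissues.

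The genes outside the 9 whose log2 CPM followed them most closely over the 16 libraries were Ddx58 (Pearson r = 0.95), Ifi44 (0.93), Cxcl9 (0.92), Irgm (0.92), Rtp4 (0.92), Gbp5 (0.91), Eif2ak2 (0.91) and Dtx3l (0.91). All 8 stood in the lists of interferon pathway genes used here. Ddx58 encodes RIG-I, a sensor of viral RNA, and Eif2ak2 encodes the kinase PKR, which halts translation when it binds double-stranded RNA.

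Rsad2 was set beside other interferon-induced genes. Of 36 other type I interferon-induced genes tested, 5 were higher in PFNU than in BNED and 4 were lower, with a median log2 fold change of 0.36. These shares lay near or below the 15.0% of all genes that were higher and the 15.2% that were lower. Without the PFNU library of rat 1, 2 were higher and 5 lower, and the median was -0.24. The 4 lower genes were Ifit1, Oas1k, Epsti1 and Isg20, and the 5 higher ones, named after their values were seen, were Ifi27l2b, Ifi27, Ifitm3, Rtp4 and Ifi44. Ifit1, which binds viral RNA that lacks a cap methyl group, was at 0.995, 0.857, 1.33 and 2.71 CPM in PFNU and 9.48, 13.8, 10.5 and 11.6 CPM in BNED (log2 fold change -2.95, SE 0.53, adjusted p = 0.00109). Oas1k, of the family that makes the activator of RNase L, was at 1.08, 1.07, 0.872 and 0.934 CPM in PFNU and 4.79, 6.72, 3.70 and 5.45 CPM in BNED (log2 fold change -2.38, SE 0.48, adjusted p = 0.00227). Neither gene overlapped between PFNU and BNED.

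In the spacer limb 5 of the same 36 genes were higher in IM than in PMMA bone (Ifi27l2b, Ifi27, Ifitm3, Rtp4 and Oas2) and 3 were lower (Ifit1, Isg20 and Oas1k), beside 11.3% of all genes higher and 11.0% lower. Without the PMMA bone library of rat 1, 4 were higher and 1, Ifit1, was lower, beside 14.2% of all genes called in either direction. The log2 fold change of Isg20 was then -0.83 (adjusted p = 0.0814). Ifit1 was at 0.806, 0.753, 0.597 and 0.494 CPM in IM and 12.5, 2.02, 3.75 and 2.63 CPM in PMMA bone (log2 fold change -2.97, SE 0.54, adjusted p = 0.00243). As for Rsad2, the highest PMMA bone library was that of rat 1, and without it the log2 fold change of Ifit1 was -2.08 (adjusted p = 0.00411). Cmpk2, a mitochondrial nucleotide kinase that neighbours Rsad2 in the RefSeq annotation and was named after its values were seen, was at 4.36, 5.77, 19.7 and 10.7 CPM in IM, 46.4, 23.4, 8.37 and 16.3 CPM in PFNU, 58.4, 8.13, 9.04 and 12.8 CPM in PMMA bone and 44.5, 48.2, 32.4 and 46.4 CPM in BNED. Its PMMA bone library of rat 1 also stood far above the other PMMA bone libraries, and it was not called in any comparison (adjusted p of 0.221 for IM against PMMA bone and 0.326 for PFNU against BNED).

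Markers of blood and marrow moved beside Rsad2. All 9 neutrophil lineage markers were in the table, and their summed level was 8.94 to 26.8 CPM in IM, 32.5 to 115 CPM in PFNU, 203 to 566 CPM in PMMA bone and 1183 to 1685 CPM in BNED, with the highest PMMA bone value in rat 1. Of 10 erythroid markers 9 were in the table, and their sum was 357 to 1597 CPM in IM, 892 to 5395 CPM in PFNU and 36252 to 70087 CPM in BNED. In PMMA bone it was 77100 CPM in rat 1 and 4221 to 12687 CPM in the other 3 rats. No marker of either list was at 0 in all libraries of a group. Within groups the markers followed Rsad2 in some cases and not in others. In PFNU the library of rat 1 had the highest Rsad2 and the lowest sum of both lists, 32.5 CPM and 892 CPM. In PMMA bone it had the highest Rsad2 and the highest sum of both. The erythroid sum in BNED was 66149, 44168, 36252 and 70087 CPM, which ranked the rats as Rsad2 did. The neutrophil sum there was lowest in rat 4, at 1183 CPM, where Rsad2 was highest. The IM library of rat 1 had the lowest Rsad2, the lowest erythroid sum and the highest neutrophil sum. The part of marrow cells in the Rsad2 result was not tested, and in bulk tissue fewer cells of a type and less RNA per cell cannot be told apart.

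**Figure D4:**
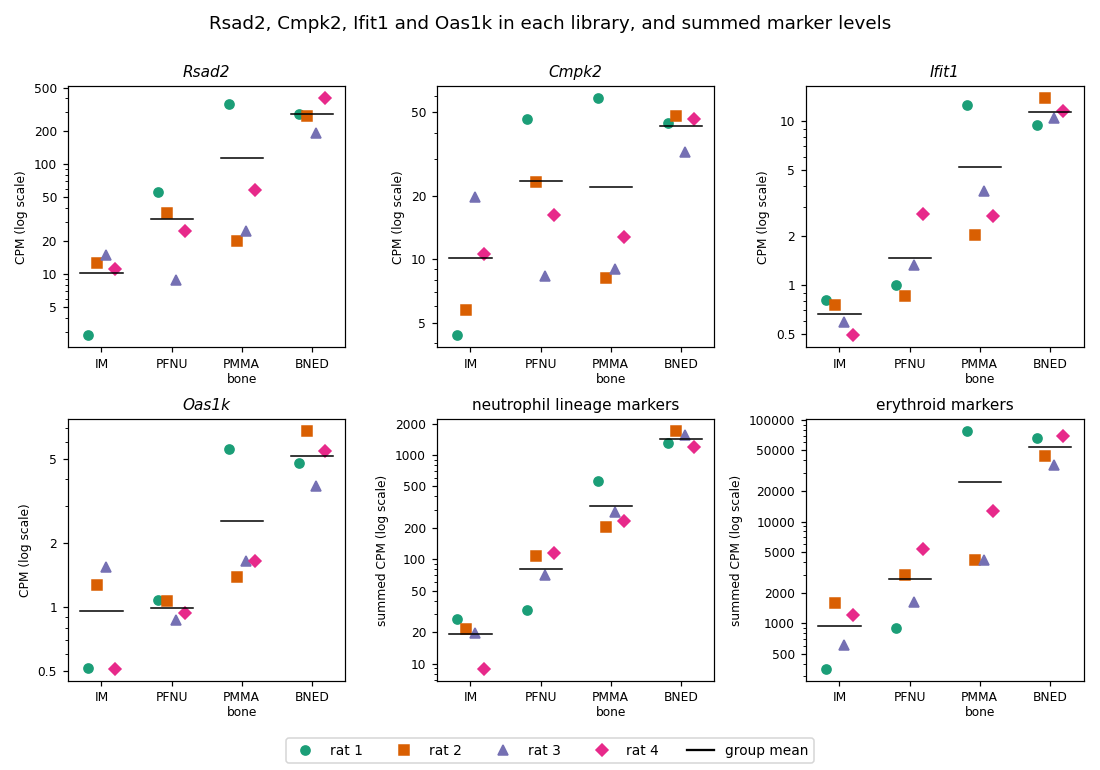
Rsad2, Cmpk2, Ifit1 and Oas1k in CPM and the summed CPM of neutrophil lineage and erythroid markers in each library, on log axes, by group; points are libraries marked by rat and lines are group means. In all 6 panels the PMMA bone library of rat 1 is the highest of its group, and BNED has the highest group mean.

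The genes upstream and beside the 9 were looked at by lists. Of 11 interferon genes listed, 4 were in the table and only Ifng, which encodes interferon gamma, had enough counts to be tested. Ifng had 85, 8, 0 and 20 counts in PFNU and 0, 4, 2 and 0 counts in BNED, with 1, 4, 49 and 4 counts in IM and 0, 11, 17 and 4 counts in PMMA bone. Its highest library was again the PFNU of rat 1, and its highest IM library was that of rat 3. Ifng was called higher in PFNU than in BNED (log2 fold change 4.56, SE 1.57, adjusted p = 0.0393) and was not called with rat as a block (adjusted p = 0.0514) or without the PFNU library of rat 1 (log2 fold change 3.00, adjusted p = 0.164). Leaving out the PFNU library of rat 4 or any single BNED library also ended the call, with adjusted p up to 0.0984.

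Of 11 genes known to be induced by interferon gamma and tested, 6 were higher in PFNU than in BNED and 0 lower, beside 15.0% of all genes higher and 15.2% lower. The other 5 were not called, and the median log2 fold change of the 11 was 1.36. The chemokines Cxcl9, Cxcl10 and Cxcl11 draw activated T cells through the receptor CXCR3. Cxcl9 was at 188, 39.0, 23.7 and 25.9 CPM in PFNU and 4.15, 8.32, 8.01 and 11.2 CPM in BNED (log2 fold change 3.12, SE 0.78, adjusted p = 0.00800). Cxcl10 was at 173, 28.1, 12.6 and 18.4 CPM in PFNU and 3.10, 6.78, 6.55 and 6.10 CPM in BNED (log2 fold change 3.36, SE 0.85, adjusted p = 0.00874). Cxcl11 was at 81.0, 6.25, 4.44 and 8.71 CPM in PFNU and 0.225, 0.481, 0.789 and 1.64 CPM in BNED (log2 fold change 5.02, SE 1.20, adjusted p = 0.00665). For all 3 chemokines every PFNU library lay above every BNED library, and the library of rat 1 was the highest.

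Without the PFNU library of rat 1 the log2 fold changes of Cxcl9, Cxcl10 and Cxcl11 were 1.90, 1.81 and 3.06, and all 3 were still called (adjusted p = 0.0383, 0.0483 and 0.0309). Igtp, an immunity-related GTPase, was higher by 1.72 on the log2 scale (SE 0.47, adjusted p = 0.0129), and by 0.74 without that library (adjusted p = 0.0461). Irgm, of the same GTPase family, and Wars, a tRNA synthetase named after its values were seen, were the other 2 higher genes. Both were among the genes not called without that library, when the median of the list was 0.58 and 4 of 12 genes tested were called, beside 24.3% of all genes.

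In the spacer limb 1 of the 11 interferon gamma-induced genes, Cxcl9, was higher in IM, beside 11.3% of all genes, at 6.37, 39.8, 79.2 and 16.1 CPM against 9.25, 6.23, 6.13 and 3.23 CPM in PMMA bone (log2 fold change 2.51, SE 0.76, adjusted p = 0.0283). Its lowest IM library, that of rat 1, fell within the range of PMMA bone. The call was lost without the IM library of rat 3 (log2 fold change 1.74, adjusted p = 0.0940), without the PMMA bone library of rat 2, 3 or 4 (adjusted p up to 0.0788) and with the 8 libraries alone (adjusted p = 0.0580). Between IM and PFNU 0 of the 11 were called, beside 0.863% of all genes. The median log2 fold change was -0.96, and 0.06 without the PFNU library of rat 1.

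Stat2 and Irf9, parts of the complex that binds the ISRE, and Irf1, a factor that interferon gamma induces, were not called in any of the 5 tests. Irf1 was at 248, 61.4, 64.8 and 57.7 CPM in PFNU and 58.5, 64.2, 77.1 and 50.4 CPM in BNED, so that a single library stood apart. Jak1, the kinase shared by both pathways, was higher in IM than in PMMA bone (log2 fold change 0.43, SE 0.14, adjusted p = 0.0420), and was not called with rat as a block (adjusted p = 0.0653). None of the 5 interferon receptor genes in the table was called in any of the 5 tests, and neither was any of 13 genes of MHC class I and the immunoproteasome.

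T cells and natural killer cells are the usual makers of interferon gamma. All 12 of their markers were in the table, and their summed level was 42.4, 104, 93.9 and 25.4 CPM in IM, 150, 52.7, 87.2 and 52.2 CPM in PFNU, 103, 58.8, 73.3 and 66.0 CPM in PMMA bone and 129, 131, 191 and 153 CPM in BNED. Within PFNU the library of rat 1 was the highest, as it was for Ifng, while between groups BNED was highest and had the fewest Ifng counts. No marker of the list was at 0 in all libraries of a group. The summed level of 6 plasmacytoid dendritic cell markers, of 8 listed, was 126 to 229 CPM in IM, 158 to 233 CPM in PFNU, 203 to 282 CPM in PMMA bone and 437 to 741 CPM in BNED. These cells are major producers of type I interferon. The part of either cell type in the levels of the 9 genes was not tested.

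**Figure D5:**
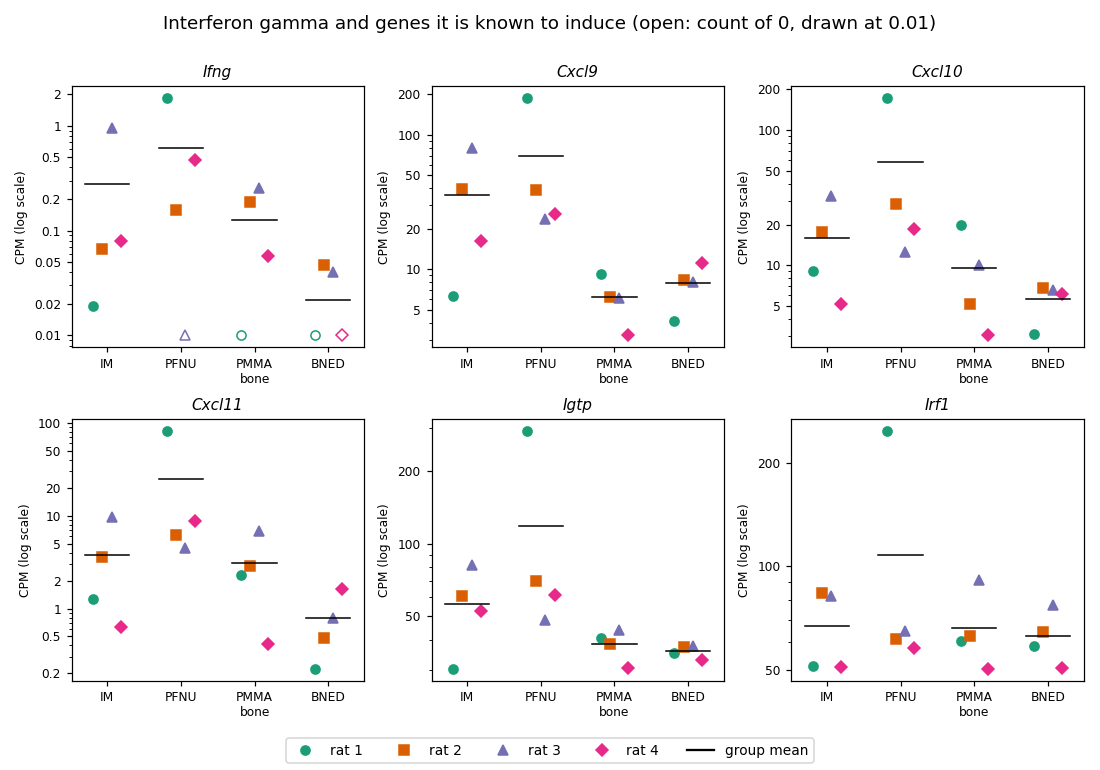
Interferon gamma (Ifng), 3 chemokines (Cxcl9, Cxcl10, Cxcl11), the GTPase gene Igtp and the transcription factor gene Irf1 in each library, in CPM on log axes, by group; points are libraries marked by rat, lines are group means and open points are counts of 0. The PFNU library of rat 1 is the highest of all 16 libraries in each of the 6 panels.

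Of the other interferon regulatory factors, Irf4, which is known for its role in lymphocytes, was called lower in PFNU than in BNED (log2 fold change -2.53, adjusted p = 5.94e-05), in IM than in PMMA bone (-1.28, adjusted p = 0.00265) and in PMMA bone than in BNED (-1.80, adjusted p = 0.0174). B cell markers moved beside it, with summed levels of 3.40 to 6.02 CPM in IM, 16.01 to 74.0 CPM in PFNU, 119 to 302 CPM in PMMA bone and 550 to 787 CPM in BNED, over 6 markers of 7 listed. Their part in the Irf4 result was not tested. The PMMA bone result was lost without any single one of 5 libraries, PMMA bone of rats 2, 3 and 4 and BNED of rats 1 and 3, with adjusted p up to 0.0684. Of the 3 genes of the FAT10 conjugation list, which serve the protein that Ubd encodes, 0 were called in any of the 5 tests. Of 3 genes for ISG15 conjugation, Ube2l6, the conjugating enzyme, was called in IM against PMMA bone only (log2 fold change 0.85, SE 0.29, adjusted p = 0.0492), and was not called with rat as a block (adjusted p = 0.0556).

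Among 6 negative regulators of interferon signalling, 3 were lower in PFNU than in BNED, beside 15.2% of all genes, and 0 were called in the other 4 tests. Ptpn6, a phosphatase of blood cells that dampens JAK signalling, was among them, with adjusted p = 0.00149 for a log2 fold change of -1.53 (SE 0.29). Pias1 (-0.61, adjusted p = 0.0225) was lost without the PFNU library of rat 2 or 4 or the BNED library of rat 4 (adjusted p up to 0.0649), and Ptpn2 (-0.62, adjusted p = 0.0484) with rat as a block (adjusted p = 0.0595) and without the PFNU library of rat 1 (adjusted p = 0.0879). Among 14 sensors of nucleic acids and their adaptors, Tlr3, a receptor for double-stranded RNA, was higher in PFNU than in BNED (0.58, SE 0.15, adjusted p = 0.0113) and in IM than in PMMA bone (0.45, SE 0.15, adjusted p = 0.0483), the second not with rat as a block (adjusted p = 0.0577). Between PMMA bone and BNED the called genes of all these lists were Irf4, Irf2 (-0.68, adjusted p = 0.0492) and Trim34 (-0.64, adjusted p = 0.0399, and 0.0535 with rat as a block), all lower in PMMA bone. Over 22 other settings, single libraries left out among them, Irf2 was called in 8, Trim34 in 12, Jak1 in 7, Tlr3 and Ube2l6 for IM against PMMA bone in 6 each and Ptpn2 in 8, with adjusted p up to 0.189 for Jak1.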

How the data were processed

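RNA-seq covered 16 libraries from 4 rats, 4 libraries in each of 4 groups, and each library was put in its group by its own label. Per the labels' protocols, RNA from tissue kept in RNAlater was made into stranded poly-A libraries and read from both ends. Bowtie2 2.2.1, TopHat2 2.0.13, FastQC 0.11.3, DESeq2 and the build rn5 are named in the submitters' processing notes; the counting program, annotation and strand setting are not given in the sources used here, so overlapping and antisense genes cannot be told apart. The deposited values were raw whole-number counts per gene symbol for 14476 genes, with no normalisation by the authors.

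The counts were fitted with edgeR 4.0.16 (quasi-likelihood F-test, group means over all 16 libraries, TMM scaling, filterByExpr, 12857 genes tested, R 4.3.3), and p-values were adjusted by Benjamini-Hochberg over all genes tested. Adjusted p-values in the text are from edgeR except where DESeq2 is named. CPM are counts per 1000000 counts of the TMM-scaled library, log2 CPM uses a prior count of 2, and an SE is the size of the log2 fold change divided by the square root of F. DESeq2 1.42.0, other size factors, no filter, the 8 libraries of a comparison alone, rat as a block and leaving out each library were alternatives, and the procedure was tested on simulated data. Reads were PCR-amplified and carried no molecular identifiers, so depth speaks for counting error only, and p-values rest on the spread between rats. No pair of libraries of a group agreed within sampling noise (lowest chi-square per degree of freedom 83.1).

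Replicate numbers name the rat, per the labels, so libraries with the same number come from the same animal; the correlations of their deviations from the group means were -0.345 to 0.496, and 10 of 24 pairs were over 0.1. The members, gene lists and tests were chosen with earlier results of these data known. Named genes were the 9 members, Ifng, Stat2, Irf9 and Irf1, up to 4 called genes per pathway list and comparison, and the 8 genes most correlated with the members. Ifnb1 was not analysed here, and 1 gene that this rule and the lists covered is not reported here and is left out of the counts of lists and named genes. Promoter sequences are from RefSeq.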

Additional observations from a re-analysis of the deposited data

Results flagged for a closer look

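In each group of 4 libraries, the gap between the most extreme library and its nearest neighbour was compared with the range of the group by Dixon's criterion at its 95% level. Of 172 groups of libraries over 43 genes, 28 stood out. The chance rate of about 1 in 20 holds for normally spread values and genes chosen beforehand. CPM were used here without a log, and some genes were chosen from these data. The 28 therefore cannot be set against that rate. Of the 36 groups of the 9 interferon-induced genes, 5 stood out. They were the PFNU library of rat 1 for Ubd (91.9 CPM) and Gbp2 (661 CPM), the PMMA bone library of rat 1 for Rsad2 (352 CPM) and Irf7 (46.8 CPM), and the BNED library of rat 2 for Isg15 (15.4 CPM).

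Among the other genes, the PFNU library of rat 1 stood out for Stat2 (168 CPM), Irf1 (248 CPM), Ube2l6 (24.4 CPM), Cxcl9 (188 CPM), Cxcl10 (173 CPM), Cxcl11 (81.0 CPM), Igtp (292 CPM), Irgm (171 CPM), Gbp5 (177 CPM) and Dtx3l (132 CPM). The PMMA bone library of rat 1 stood out for Ifit1 (12.5 CPM), Oas1k (5.53 CPM), Cmpk2 (58.4 CPM), Eif2ak2 (78.8 CPM), Trim34 (48.0 CPM), Pias1 (47.8 CPM), Dtx3l (57.1 CPM) and Ube2l6 (16.8 CPM). The IM library of rat 3 stood out for Ifng (0.944 CPM) and Stat2 (117 CPM). In BNED these were the library of rat 2 for Ifi27l2b (25.5 CPM), of rat 3 for Irgm (26.3 CPM) and of rat 4 for Ptpn6 (155 CPM). The genes in each library are not independent of each other, and why these libraries stood apart was not tested.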

How the results depend on the processing

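The calls of Ubd, Ifit2, Gbp2 and Rsad2 between PFNU and BNED held with DESeq2, other size factors, no filter, the 8 libraries alone, the replicate block for rat and each single library left out. The block changed the calls of Mx2 (PFNU against BNED), Rsad2 and Irf7 (both IM against PMMA bone), with adjusted p = 0.101, 0.0554 and 0.0498, and no other call among the 9 genes. For IM against PMMA bone, 4 of the 9 were called by DESeq2 and 1 with the 8 libraries alone. The DESeq2 calls over all genes are not given for this comparison, so the 4 cannot be set against a share. Over all genes, IM against PFNU had 111 calls, and 572 with DESeq2, 47 with the block, 0 with the 8 libraries alone and 11 (without PFNU of rat 4) to 244 (without IM of rat 4) without single libraries. PMMA bone against BNED had 631 calls, and 1546 with DESeq2, 1767 with the 8 libraries alone and 0 to 2578 without single libraries, the highest without PMMA bone of rat 1. The interaction had 0 calls, 136 with DESeq2 and 0 to 199. IM against PMMA bone had 2860, 908 with the 8 libraries alone and 1818 to 4047, and PFNU against BNED had 3884 and 2637 to 4755. Calls among the 9 genes without single libraries were 0 to 1 for PMMA bone against BNED, 1 to 4 for IM against PMMA bone and 4 to 7 for PFNU against BNED.

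A fit without both the PFNU and the PMMA bone library of rat 1 was chosen after seeing the data. Over all genes it gave 199, 2427, 14 and 1686 calls for IM against PFNU, PMMA bone against BNED, the interaction and IM against PMMA bone. Of the 9 genes it called 1, 5 and 3 for PMMA bone against BNED, IM against PMMA bone and PFNU against BNED. Calls over all genes for PFNU against BNED, and the number of genes tested in that fit, are not given. The 1, 5 and 3 can therefore not be set against shares of all genes. For PFNU against BNED, Gbp2 (adjusted p = 0.0521) was lost beside Mx2 and Usp18, and of the other genes Igtp (adjusted p = 0.0504). For IM against PFNU the same fit gave log2 fold changes of 0.84 for Isg15, 0.36 for Mx1, 0.43 for Usp18 and 0.40 for Gbp2, and for PFNU against BNED -0.29 for Irf7. Without single libraries these ranged from -0.47 to 0.84, -1.46 to 0.36, -0.40 to 0.43, -1.32 to 0.40 and -0.28 to 0.94, and Irf7 for IM against PFNU from -0.22 to 1.06. Isg15 was at 0.083 with the block. Of the values of the 9 genes over all alternatives, 14 of 198 changed sign for IM against PFNU, 3 of 198 for PMMA bone against BNED, 25 of 189 for the interaction, 0 of 198 for IM against PMMA bone and 2 of 198 for PFNU against BNED. Counting depth limited Ifng most, with 0 to 85 counts in a library, and the cause of these shifts was not tested.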
